A study of Mus musculus with 4 samples.

Results

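Oligodendrocytes are the glial cells that wrap axons of the central nervous system in myelin. The 10 genes described here stand for successive steps of that lineage and were chosen by name. Olig1, Olig2 and Olig3 encode basic helix-loop-helix transcription factors, Pdgfra and Cspg4 encode cell-surface proteins of the oligodendrocyte precursor, and Mbp, Mog, Mag, Cnp and Mobp encode proteins of myelin. They are 10 of 21755 protein-coding genes of the GENCODE annotation of mm10 on chromosomes 1 to 19 and X. Each was examined for PHF2 peaks and H3K9me2 regions within 1 kb of any of its annotated transcript starts, called its promoter here, and within 50 kb of them.

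The data were ChIP-seq of neural stem cells derived from wild-type C57BL/6J mouse embryos at E12.5 and grown as a culture with EGF at 20 ng/ml and FGF at 10 ng/ml. Of the 4 samples, 1 was a precipitation of PHF2, 1 of H3K9me2, and each had 1 input. Only the 2 lists of called intervals were analysed, so there was no replicate, no read depth and no spread between cultures for any value, and no test was run. No expression was measured in them, so the labelled cell type could not be checked against the RNA of its markers.

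PHF2 is a histone demethylase whose PHD finger binds trimethylated lysine 4 of histone H3, a mark of active promoters. H3K9me2, dimethylated lysine 9 of histone H3, is found in silent chromatin and has been described as a PHF2 substrate. In the embryonic neural tube, Olig2 is made in ventral progenitors that give rise first to motor neurons and then to oligodendrocyte precursors. Olig1 acts with it later, during maturation and myelination, and Olig3 marks progenitors of dorsal neurons. Neural stem cells kept in EGF and FGF commonly make Olig2, whereas the myelin genes are switched on only in differentiated oligodendrocytes.

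The promoter sequences show one way in which the members differ. The RefSeq promoter table for GRCm38.p6, the assembly of mm10, held 8 of the 10 genes, all but Olig1 and Mbp. The stretches below end just before the first annotated start and read 5′ to 3′ on the strand of the gene, with CpG dinucleotides in capitals. Olig2 is shown because its start lay in one of the strongest PHF2 peaks, Olig3 as its relative without a peak, Pdgfra as a precursor gene without a peak, and Cnp and Mog as myelin genes.
Olig2: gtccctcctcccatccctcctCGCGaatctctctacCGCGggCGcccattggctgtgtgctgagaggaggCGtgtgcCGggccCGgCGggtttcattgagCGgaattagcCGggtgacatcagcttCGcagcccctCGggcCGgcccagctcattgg
Olig3: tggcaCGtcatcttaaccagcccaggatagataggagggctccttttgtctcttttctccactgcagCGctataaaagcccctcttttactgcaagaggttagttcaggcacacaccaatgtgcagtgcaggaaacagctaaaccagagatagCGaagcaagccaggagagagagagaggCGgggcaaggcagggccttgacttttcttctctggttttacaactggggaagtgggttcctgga
Pdgfra: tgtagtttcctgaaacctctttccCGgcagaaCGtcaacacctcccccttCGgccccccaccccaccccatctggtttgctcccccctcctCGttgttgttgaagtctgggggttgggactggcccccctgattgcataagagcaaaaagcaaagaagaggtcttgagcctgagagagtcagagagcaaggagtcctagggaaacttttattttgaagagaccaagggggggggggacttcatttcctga
Cnp: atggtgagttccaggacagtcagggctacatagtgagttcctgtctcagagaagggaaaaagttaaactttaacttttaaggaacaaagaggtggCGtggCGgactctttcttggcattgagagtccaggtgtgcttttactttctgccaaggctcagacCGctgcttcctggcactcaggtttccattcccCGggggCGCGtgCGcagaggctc
Mog: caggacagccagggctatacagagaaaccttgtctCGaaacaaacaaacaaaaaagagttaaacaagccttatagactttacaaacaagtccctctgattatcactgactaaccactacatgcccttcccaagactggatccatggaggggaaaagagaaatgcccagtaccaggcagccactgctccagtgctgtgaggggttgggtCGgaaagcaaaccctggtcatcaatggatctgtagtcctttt

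The Olig2 stretch (chr16:91225300-91225456, plus strand) held 14 CpG in 157 bases and the Olig3 stretch (chr10:19356289-19356532, plus strand) 4 in 244. The Pdgfra stretch (chr5:75152001-75152250, plus strand) held 4 CpG in 250 bases, the Cnp stretch (chr11:100574689-100574903, plus strand) 7 in 215, and the Mog stretch (chr17:37023399-37023648, minus strand) 2 in 250. Just before its start, Olig2 was thus far richer in CpG than its relative Olig3. Over the whole table entry, which runs from 250 bases before to 50 after the RefSeq start, Olig2 had 25 CpG, more than 81.6% of the 32851 promoters of that length, and Olig3 had 4, more than 31.4%.

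PHF2 lay at the promoters of 2 of the 10 genes, Olig2 and Olig1, and no H3K9me2 region lay at the promoter of any of them. Among all 21755 protein-coding genes, 29.3% had a PHF2 peak and 3.49% an H3K9me2 region at the promoter. By role, 2 of the 3 Olig genes had a PHF2 peak, 0 of the 2 precursor genes and 0 of the 5 myelin genes. A count of 2 in 10 lies near that background and sets nothing apart about the 10 genes as a group, and at a background of 3.49% a count of 0 in 10 says little about H3K9me2. Both peaks were also among the highest-scoring 10% of PHF2 peaks, which marked 2.84% of all genes. Both extended so far into their genes that their centres lay outside the 1 kb window. Counted by centres, 0 of the 10 genes had a peak, against 28.8% of all genes.

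**Figure D1:**
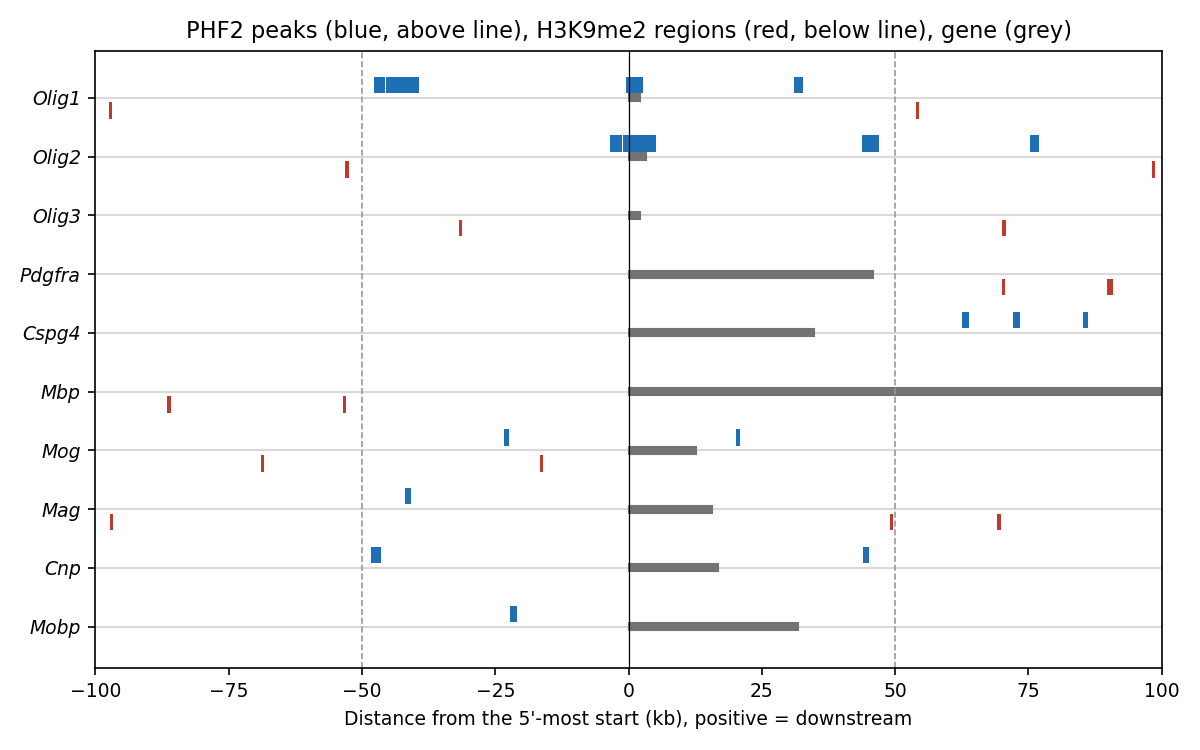
PHF2 peaks (blue) and H3K9me2 regions (red) along 100 kb on either side of the 5′-most start of each of the 10 genes, with the x axis in kb in the direction of transcription, gene bodies in grey, dashed lines at 50 kb, and intervals narrower than 0.6 kb widened to that width. PHF2 peaks cover the starts of Olig1 and Olig2 and of no other gene shown, and no H3K9me2 region touches a start.

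Olig2 carried one of the strongest and broadest PHF2 peaks in the list. Its peak on chromosome 16, from 91224338 to 91230537, had a score of 3100 and a length of 6200 bp. The score is the authors' value per peak, without a stated scale, and ranks peaks only within this list, where it ran from 100.02 to 3226.07 with a median of 229.09. The score was shared by 4 peaks, so Olig2 held rank 2 to 5 of 5992 by score, and it held rank 3 by length, where the median was 1306 bp. The peak began 1119 bp before the Olig2 start and reached 5080 bp past it, 1860 bp beyond the end of the gene (91225457 to 91228677). The whole transcribed unit, with its exons and introns and its coding and untranslated sequence, therefore lay inside 1 peak.

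Olig1, its neighbour in the same orientation, had the same arrangement on a smaller scale. Its peak, from 91269321 to 91272439, had a score of 1609.26 (rank 51) and a length of 3119 bp (rank 134). It began 451 bp before the start and ended 2667 bp after it, 506 bp past the end of the gene (91269772 to 91271933). A peak that holds the whole gene was rare. It occurred at 58 of 21755 protein-coding genes (0.267%), all of them 5 kb or shorter, and among the 593 genes with a PHF2 promoter peak and a length of at most 5 kb it was 9.78%. Olig1 and Olig2 have lengths of 2162 and 3221 bp.

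Beside these, the Olig locus held 2 further PHF2 peaks, neither at a protein-coding start. The first (91221977 to 91224161, score 442.34, rank 1116, length 2185 bp) was centred 2388 bp upstream of the Olig2 start and was separated from the peak over Olig2 by 176 bp. It overlapped Gm49614, an annotated transcript to be experimentally verified. The second (91300711 to 91302414, score 216.84, rank 3221, length 1704 bp) was centred 31790 bp downstream of the Olig1 start, inside the lincRNA Gm15966. The central 120 bases of both peaks are shown on the plus strand with CpG in capitals, because both are away from coding starts.
Upstream of Olig2, chr16:91223010-91223129: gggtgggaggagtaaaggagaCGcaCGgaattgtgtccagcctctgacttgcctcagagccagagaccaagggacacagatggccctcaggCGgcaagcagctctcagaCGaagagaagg
Downstream of Olig1, chr16:91301503-91301622: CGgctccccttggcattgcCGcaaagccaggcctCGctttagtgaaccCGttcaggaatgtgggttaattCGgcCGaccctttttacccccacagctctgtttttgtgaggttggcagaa

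These windows held 4 and 6 CpG. Because the starts of Olig1 and Olig2 lie 44315 bp apart, the genes share most of their surroundings. Within 50 kb, Olig1 had 4 PHF2 peaks and Olig2 had 3, and 4 or more were found at 1.43% and 3 or more at 5.34% of all protein-coding genes. PHF2 peaks covered 13.2% of the bases within 50 kb of the Olig1 start and 11.5% of those around the Olig2 start, ranks 14 and 16 of 21755 genes, where the median gene had 0 covered bases. All 13 genes above Olig1 were histone genes of the Hist1 cluster on chromosome 13, in which many short genes lie close together.

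**Figure D2:**
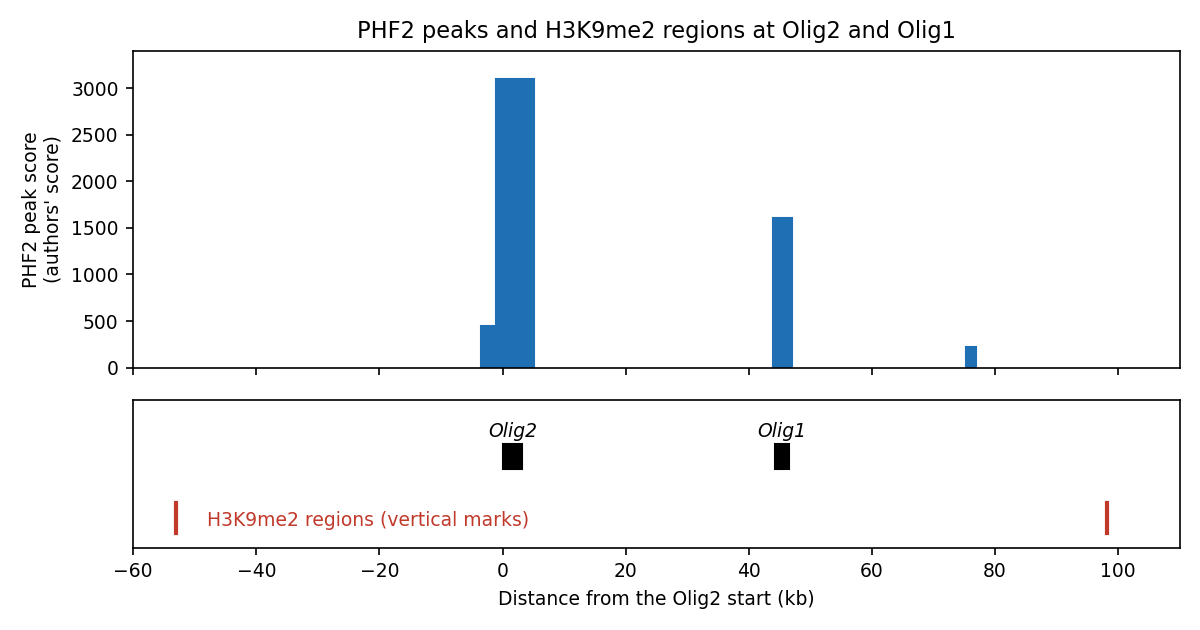
The Olig2 and Olig1 locus, with the authors' PHF2 score of each peak as bar height, the peak extent as bar width, genes as black boxes and H3K9me2 regions as red marks, against the distance from the Olig2 start in kb. The peak over Olig2 (score 3100) and the one over Olig1 (1609.26) exceed the 2 others (442.34 and 216.84), and the nearest H3K9me2 regions lie outside all 4.

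Among peaks at protein-coding promoters, those closest to that of Olig2 by the sum of the differences in score rank and length rank were those of Spry4 (a sum of 1), Dusp6 (4), Spry2 (6), Marcks (11) and Adgrl2 (13). Spry4 and Spry2 encode antagonists of receptor tyrosine kinase signalling, Dusp6 a phosphatase of ERK, Marcks a membrane-bound regulator of actin, and Adgrl2 an adhesion receptor. Their peaks were 5095 to 6071 bp long. A further peak with the score of 3100, 6347 bp long and rank 2 by length, was as close to that of Olig2 as the Spry4 peak, but lay at no protein-coding promoter. Next to Olig2 in score came Spry2 (3226.07) above and Sox4 (2931.49) and Marcks (2834.08) below. Sox4 encodes a transcription factor of neural differentiation. Olig1 stood between Sox2 (1625.48), which encodes a factor of neural stem cells, and Rev3l (1607.69), which encodes a DNA polymerase subunit, with Tiparp (1680.38) and Hmga2 (1606.33) as the next peaks out.

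**Figure D3:**
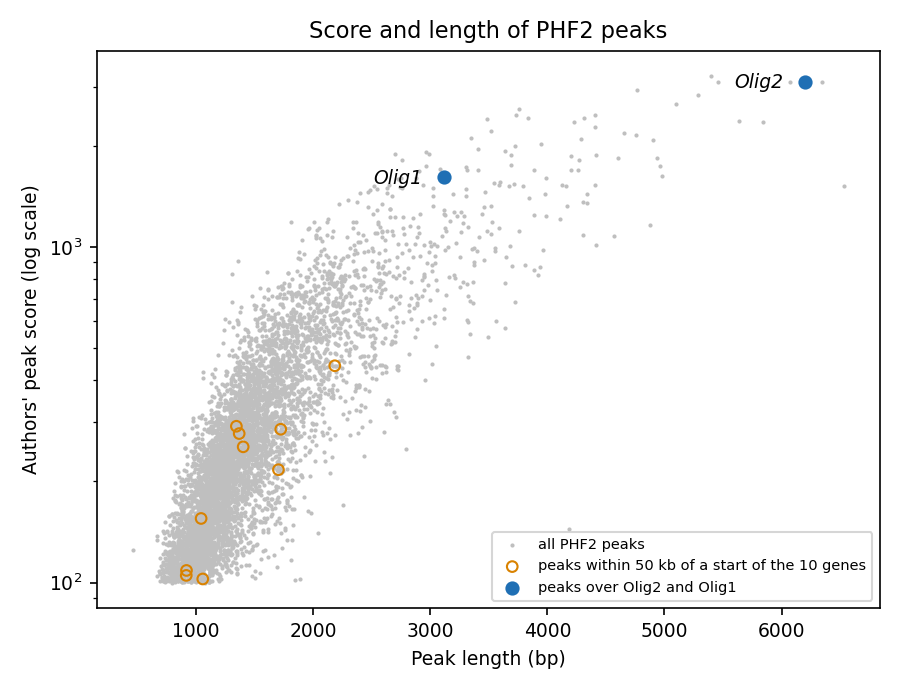
The authors' score (log axis) against length in bp for all 5992 PHF2 peaks (grey), the peaks over Olig2 and Olig1 (filled blue) and the other peaks within 50 kb of the 10 genes (open orange circles). Olig2 (6200 bp) and Olig1 (3119 bp) lie in the upper right, and the other marked peaks lie among the bulk, at scores from 102.48 to 442.34.

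Olig3, the third gene of the family, had no PHF2 peak at its promoter (start 19356533 on chromosome 10, plus strand) or anywhere within 50 kb. The nearest peak was 235198 bp away, and 76.8% of protein-coding genes had one nearer. Its promoter was rich in CpG over the 2 kb around the start, though not in the stretch printed above. CpG observed/expected, the number of CpG relative to that given by the C and G content, was 0.591 at Olig3, 0.640 at Olig2 and 0.724 at Olig1, and the median over all genes was 0.363. Olig3 and Olig2 fell in the same decile of CpG observed/expected, the ninth, where 51.1% of 2175 genes had a PHF2 peak. Olig1 fell in the tenth decile, with 63.6%. With deciles of the window of the 5′-most start alone, Olig3 fell in the seventh (39.7%), Olig2 in the eighth (52.5%) and Olig1 in the ninth (61.7%). All 3 genes of the family thus had CpG-rich promoters, 2 with a peak and 1 without.

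Neither gene of the precursor surface proteins had a PHF2 peak. Pdgfra, which encodes the receptor for the mitogen PDGF-AA, begins at 75152292 on chromosome 5, and its nearest peak lay 107318 bp away. Over its 9 distinct starts, CpG observed/expected was 0.477, in a decile where 49.3% of genes had a peak. Around the 5′-most start alone it was 0.713, close to the Olig1 value of 0.724, in a decile of single windows where 61.7% of genes had a peak. Cspg4, which encodes the NG2 proteoglycan, begins at 56865033 on chromosome 9 and had a CpG observed/expected of 0.310, in a decile where 14.4% of genes had a peak. With the 5′-most start alone, the share in its decile was 3.22%. Its nearest peak was 31221 bp from the closest of its 3 starts and 62511 bp from the 5′-most one.

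The 5 myelin genes had no PHF2 peak at their promoters, and 3 of them had promoters of a kind that rarely carried one. Mag (0.183) and Mog (0.184), which encode adhesion proteins of the myelin sheath, fell in the second decile of CpG observed/expected, where 3 of 2175 genes (0.138%) had a peak. Mobp (0.228), which encodes a basic protein of compact myelin, fell in the third, with 3.31%. Cnp (0.405) and Mbp (0.407) fell in the sixth, where 37.6% of genes had a peak. Cnp encodes a phosphodiesterase of non-compact myelin and Mbp the basic protein that compacts the membrane layers. With the window of the 5′-most start alone, the share in the matching decile was 10.9% for Cnp, 25.8% for Mbp, and 0.689% for Mobp and Mog.

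**Figure D4:**
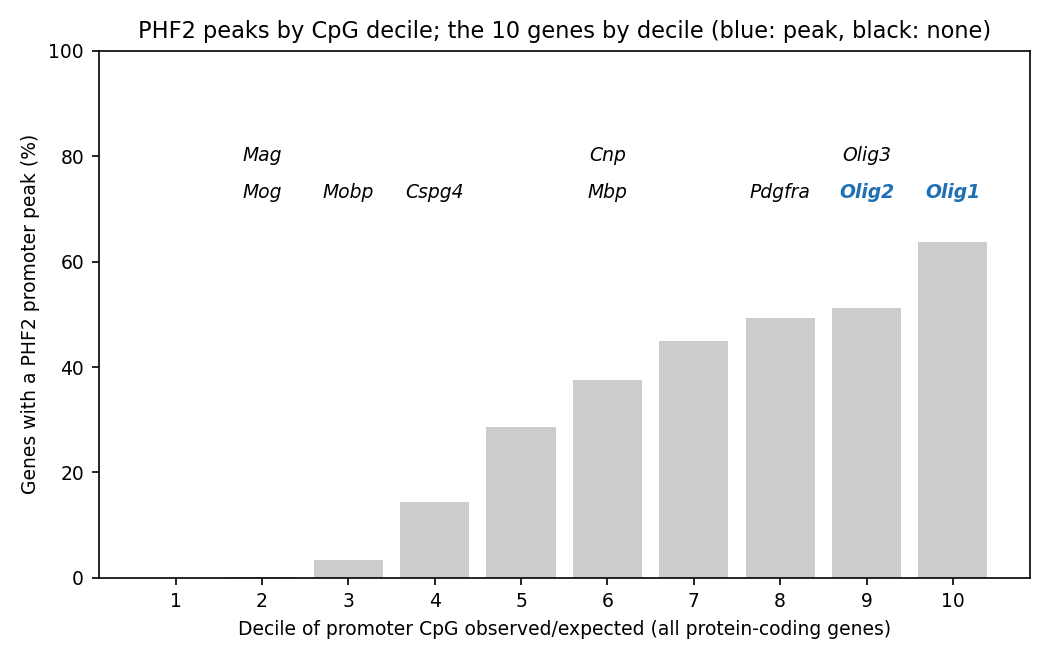
Share of genes with a PHF2 promoter peak (y axis, %) in each decile of promoter CpG observed/expected over 21755 protein-coding genes (bars), with the names of the 10 genes placed over their decile at arbitrary height, blue where the gene had a peak and black where it had none. Mag, Mog and Mobp stand over deciles where at most 3.31% of genes had a peak, and Olig3 and Pdgfra without a peak stand over deciles near 50%, at 51.1% and 49.3%.

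The surroundings of the precursor and myelin genes held PHF2 peaks, but at the starts of other genes. Within 50 kb, 7 of the 10 genes had a PHF2 peak, and 50.9% of all genes did. Cspg4 was among them only through a start other than its 5′-most one. With the 5′-most start alone (48.6% of all genes) or coding transcripts alone (49.7%), the count was 6, without Cspg4. Around Cspg4, Mog, Mag, Cnp and Mobp there were 8 peaks, and each was centred within 342 bp of the start of a different protein-coding gene. The share of all 5992 peaks that lie so close to a coding start is not given here, so this count sets nothing apart about these surroundings. The genes at these peaks are named next. They were Snx33 and Imp3 near Cspg4, Zfp57 and Gabbr1 near Mog, Usf2 near Mag, Acly and Dnajc7 near Cnp, and Rpsa near Mobp. The scores of the 8 peaks, 102.48 to 292.11, ranked from 2167 to 5910 of 5992. Acly encodes an enzyme that supplies acetyl-CoA for lipid synthesis, Rpsa a protein of the small ribosomal subunit, and Gabbr1 a subunit of the GABA-B receptor.

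Mbp was the farthest of the 10 genes from a PHF2 peak. It spans 110492 bp on chromosome 18 (82475146 to 82585637), with 12 distinct starts. The nearest PHF2 peak was 1486131 bp from any of them, and 96.5% of protein-coding genes had a peak nearer. No H3K9me2 region lay within 50 kb of its starts either, a window of 188.117 kb. Among 1062 genes with windows within 10% of that width, 15.7% had none, and the median was 2 regions. Within 50 kb of its gene body it had a region.

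H3K9me2 regions were few around the 10 genes. Within 50 kb of a start, 3 of the 10 had a region, and 63.4% of all genes did. Olig3, Mog and Mag had 1 region each, all of the minimum length of 73 bp, which 55.6% of the listed regions have. The Olig1 and Olig2 windows are largely the same DNA and so do not count as independent. None of the 10 genes had a region inside its gene body, and 24.2% of all genes did. With a reach of 100 kb, 8 of the 10 had a region and 82.3% of all genes did, so the count within 50 kb depends on the chosen reach. Counted within 50 kb of the gene bodies, 5 of the 10 had one, against 67.1%.

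Among the Olig genes, the one without PHF2 was the one nearest to an H3K9me2 region. The region upstream of Olig3 was 31705 bp from the start, against 53038 bp for Olig2 and 53877 bp for Olig1. The median gene had one at 31367 bp, so Olig3 was ordinary in this respect. Around Olig2 and Olig1, the stretch free of H3K9me2 regions measured 151.229 kb. It was shorter than the median stretch, 173.914 kb, and 43.9% of genes had a shorter one. The dense PHF2 peaks there did not go with an unusually long stretch without called H3K9me2. The longest stretches of the 10 were those of Cspg4 (663.299 kb, longer than in 92.4% of genes), Mobp (403.513 kb, 83.2%) and Cnp (364.358 kb, 80.3%).

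GC content within 50 kb of the 5′-most start had a median of 47.4% over the 10 genes and 44.3% over all genes. Cspg4 (50.5%) lay in the highest decile, where 58.7% of genes had no H3K9me2 region within 50 kb, and Olig1, Olig2 and Cnp lay in a decile where 43.9% had none. Olig3 (42.1%) lay below the median of all genes, in a decile where 28.7% had none, although it had a region, and Mog in one where 31.4% had none. Over all genes it was 36.6%. Whether GC content accounts for the few regions was not tested.

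Of the 3 regions near the 10 genes, those of Olig3 and Mog are shown, on the plus strand, to let their base composition be compared with the PHF2-bound DNA above. The Olig3 region lies in an intron of the lincRNA Gm33056, 31705 bp upstream of the start, and the Mog region is intergenic, 16572 bp upstream. The third, chr7:30865718-30865790, overlaps untranslated exon sequence of Cd22, 49083 bp downstream of the 5′-most Mag start, and is not printed.
Olig3 region, chr10:19324756-19324828: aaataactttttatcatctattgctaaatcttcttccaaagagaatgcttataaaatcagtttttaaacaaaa
Mog region, chr17:37039970-37040042: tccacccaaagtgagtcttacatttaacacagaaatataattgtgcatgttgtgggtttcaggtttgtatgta

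None of the 3 regions held a CpG, as was the case for 59.3% of all H3K9me2 regions analysed. The GC content was 21.9% in the Olig3 region, 35.6% in the Mog region and 47.9% in the Mag region, and the median over the list was 42.5%. The peak over Olig2 had a GC content of 54.9% and a CpG observed/expected of 0.621. GC content was 56.7% in the peak over Olig1, 56.8% in the peak upstream of Olig2, and 48.1% in the peak downstream of Olig1. The last value is close to that of the Mag region. The regions, at 73 bp, are far shorter than the peaks, so the lack of a CpG cannot be compared between them.

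Short motifs were sought on both strands in the RefSeq promoter entries of the 8 matched genes. The bHLH sites CAGCTG and CATATG, the ETS core CCGGAA and the AP-1 site TGACTCA occurred in 0 of the 8 genes. They occurred in 16.3%, 3.91%, 14.9% and 5.2% of all promoters in the table. The SOX core AACAAT occurred at Olig2, with 10.7% of all promoters, and the GC box GGGCGG at Olig2, Cspg4 and Cnp, with 35.7%. The CCAAT box occurred at Olig2, Olig3 and Mag (37.4% of all promoters) and TATAAA at Olig2 and Olig3 (13.6%). A match is a sequence and not a bound site.

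PHF2 peaks lay at many of the other transcription factors of the lineage. Of 25 further transcription factors of the oligodendrocyte lineage, 15 (60%) had a PHF2 promoter peak, where genes of the same CpG deciles had 46.7% and all protein-coding genes 29.3%. Those with high scores included Sox9 (1839.15), a glial and progenitor factor, Sox6 (1318.86), a brake on precursor maturation, and Zeb2 (1182.77), a factor of myelination. Tcf12, Tcf4 and Tcf3, which encode the E proteins that pair with OLIG factors, had scores of 940.85, 826.26 and 184.14. Sox8 had 619.92 and Tcf7l2 563.08. None of the 15 reached the score of Olig2, and only Sox9 exceeded that of Olig1. The 10 without a peak were Sox10, Sox17, Nkx2-2, Nkx6-1, Nkx6-2, Myrf, Zfp488, Hes5, Myt1 and St18. They include Sox10 and Myrf, the factors that drive myelin genes, and Nkx2-2, Nkx6-1 and Nkx6-2, homeodomain factors of ventral progenitors. Nkx6-1 (0.839) and Nkx6-2 (0.851) had no peak although their CpG observed/expected exceeded that of Olig1.

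Receptors and signals of precursors were marked in 12 of 22 cases (54.5%, against 38.7% in the same CpG deciles). This count rests in part on the use of every annotated start. With the 5′-most start alone it was 9 of 22, where 27.2% of all genes had a peak. Egfr, which encodes the receptor of one of the added growth factors, had the highest score (1255.15), followed by Jag1 (1141.23) and Notch1 (1003.38) of the Notch pathway and by Ptprz1 (969.22), a phosphatase of precursors. Fgfr1 had 860.87, Cxcr4 722.59, Fgfr2 646.53 and Erbb4 530.83, and the Fgfr2 peak also lay at a start of Ctbp2. The 10 genes without a peak included, like Pdgfra, its ligand genes Pdgfa and Pdgfb and the related receptor gene Pdgfrb, with CpG observed/expected of 0.710 at Pdgfa, 0.636 at Pdgfb and 0.305 at Pdgfrb. Erbb3 (0.607) and Gas6 (0.568), outside the PDGF family, had no peak either. Erbb4 and Bcas1, a gene of early myelinating cells, had H3K9me2 regions at a promoter, but neither had one at the 5′-most start.

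Genes of hedgehog signalling and ventral patterning, the pathway that induces Olig2 in the embryo, had a peak in 10 of 18 cases (55.6%, against 47.4% in the same CpG deciles). The co-receptor gene Gas1 had the highest score (2100.69) and the receptor gene Ptch1 came next (1353.55). Pax6 (709.63) encodes a neighbouring progenitor factor, Boc (669.25) and Cdon (612.09) further co-receptors, and Gli3 (565.63) and Gli2 (512.25) the transcriptional effectors. The ligand gene Shh and the target gene Gli1 had no peak.

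Other myelin and mature oligodendrocyte genes had a peak in 3 of 30 cases (10%), below both the 29.3% of all genes and the 22.9% of genes of the same CpG deciles. Among them were Car2 (553.84), which encodes a carbonic anhydrase, and Qdpr (129.91), which encodes an enzyme of biopterin recycling. Ugt8a (0.755) and Tppp (0.628) had CpG-rich promoters and no peak.

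Genes of other cell types gave a scale for these shares. Astroglial and radial glial genes had a peak in 9 of 16 cases (56.3%, against 31.2% in the same CpG deciles). Vim (1757.88), Nes (1693.52), Nfib (1438.99) and Slc1a3 (1434.89) had the highest scores. Gfap, Aqp4, Aldh1l1, S100b, Gjb6, Aldoc and Nfix had no peak, so the share does not describe astroglial genes throughout. With the 5′-most start alone, the count for this list was 7 of 16, where 27.2% of all genes had a peak. Neuronal genes had 5 of 16 (31.3%, against 38.1% in the same CpG deciles), led by Gria2 (797.68) and Map2 (660.09). Microglial genes had 1 of 10 (10%, against 15.2%), Sall1 (425.9). Within the glial genes, PHF2 peaks were thus found at more of the progenitor and factor genes than of the mature oligodendrocyte genes. The lists differ in size, in CpG content and in how they were chosen, and no test of the difference was run.

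**Figure D5:**
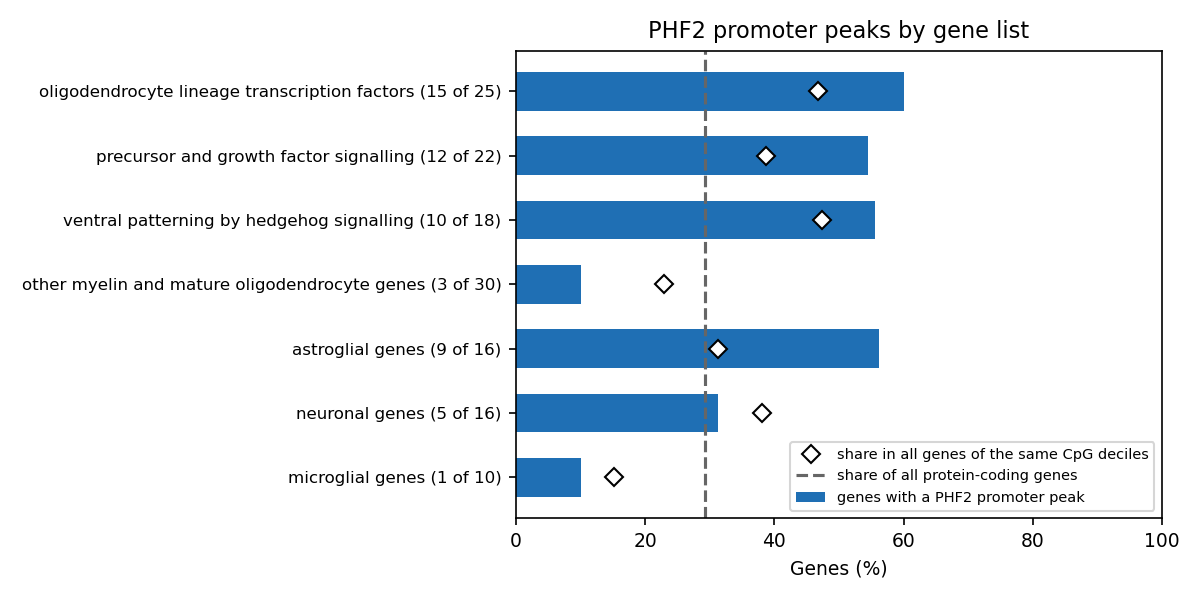
Share of genes with a PHF2 promoter peak (x axis, %) in 7 gene lists (bars, with counts), with the share in all genes of the same CpG deciles (diamonds) and the share of all 21755 protein-coding genes (dashed line, 29.3%). The list of other myelin genes (10%) lies below its diamond (22.9%). The lists of transcription factors (60%) and astroglial genes (56.3%) lie above their own (46.7% and 31.2%).

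Over the 7 lists, 5 of 137 genes (3.65%) had an H3K9me2 region at the promoter, near the 3.49% of all genes. The lists of transcription factors, hedgehog genes, other myelin genes and microglial genes had 0, the precursor list 2 of 22, the astroglial list 1 of 16 (Slc1a2) and the neuronal list 2 of 16 (Neurod1 and Elavl4). Of these 5 genes, 4 also had a PHF2 peak at a start (Erbb4, Slc1a2, Neurod1 and Elavl4). Only at Neurod1 did the region lie inside the peak. At the other genes with both, regions and peaks lay at different starts of the gene. Regions began at 68329812 and 68329979 for Erbb4, 102760601 for Slc1a2 and 110293682 for Elavl4. Their peaks began at 69106734, 102658640 and 110350803. The share of all genes with both is not given here. A region that was not called does not show that the mark was absent, since the depth of the sample is unknown.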

How the data were processed

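ChIP-seq was done on neural stem cells with 1 sample each for PHF2, its input, H3K9me2 and its input, and the 2 interval lists of the precipitations were used. The inputs were not analysed here. Per the file headers, MACS run in Galaxy made the PHF2 list. Its version, control and settings are not given in the sources used here, nor is the caller of the H3K9me2 list. Alignment with Bowtie2 to mm10 is listed in the submitters' processing notes. The deposited score of the PHF2 list, 1 value per peak, has no stated scale. The deposited score of the H3K9me2 list is 0 throughout, so only positions and lengths were used. Neither list gives depth.

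Of 36171 H3K9me2 regions, 36111 on chromosomes 1 to 19 and X were analysed, and 60 on scaffolds were left out. Starts of all transcripts of 21755 protein-coding genes came from GENCODE M21. An overlap of 1 bp or more counted. Windows were pooled per gene, and coordinates are 1-based on mm10. CpG deciles divide all genes into 10 equal classes. The overlap code was tested on simulated data and recovered 200 of 200 planted genes. Software was Python 3.11.15, pandas 2.3.3, numpy 2.4.6 and pysam 0.24.0. Sequences came from RefSeq tables and the GRCm38.p6 genome.

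The 10 genes and the lists were chosen with earlier results of these data known. The text names all 10 genes, list genes with a peak or region (at most 8 by score per list), coding genes with starts nearby, peaks of adjacent score, and the 5 peaks most like that of Olig2. Some list genes are counted but not reported here by name. Tcf3 and list genes without a peak were named after their values were seen. Alternatives were other windows, reaches, starts, overlap rules and subsets of both lists.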

Additional observations from a re-analysis of the deposited data

How the results depend on the processing

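Of 127 values under alternative settings, 102 stayed within 1.5 times the reported count and 25 moved further. The PHF2 count of 2 genes, Olig1 and Olig2, held when the promoter reached 500 bp, 2 kb or 5 kb from a start, and with only the 5′-most start, coding transcripts alone (chosen after the data had been seen), and the higher-scoring 50% and highest-scoring 10% of peaks. The count was 0 when peak centres were counted (28.8% of all genes). Over the other windows and starts, 27.2% to 30.9% of all genes had a peak, and with the 2 subsets of peaks 14.9% and 2.84%. Ranked by length, Olig1 moved from 51 to 134. Within 25 kb, 4 genes had a PHF2 peak in place of 7 (41.3% of all genes). At that reach 1 gene had an H3K9me2 region in place of 3 (44.2% of all genes). The count of genes with H3K9me2 regions was 8 within 100 kb (82.3% of all genes) and 5 around gene bodies (67.1%). It was 0 with only regions longer than 73 bp (38.6%), and the cause of the last is that all 3 regions have that length. Among the higher-scoring 50% of peaks, 1 other myelin gene kept a peak in place of 3 (14.9% of all genes). With the 5′-most start alone (27.2% of all genes), PHF2 counts were 13 for transcription factors, 9 for precursor genes, 9 for hedgehog genes and 7 for astroglial genes. They were unchanged for the remaining lists. The share in like CpG deciles was not computed per list for that setting.

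H3K9me2 counts at promoters of the lists rest on few genes. With 5 kb windows they were 5 for transcription factors, 6 for precursor genes, 3 for hedgehog genes, 3 for other myelin genes, 3 for astroglial genes, 5 for neuronal genes and 4 for microglial genes, where 15.3% of all genes had a region. With 2 kb (6.93% of all genes) they were 1 for other myelin genes, 2 for astroglial and 1 for microglial genes. With 500 bp (1.65%) they were 0 for neuronal genes. The 5′-most start (1.46%) gave 0 for precursor, 0 for astroglial and 1 for neuronal genes. Coding transcripts alone (2.3%) gave 0 for precursor genes. Longer regions (1.46%) gave 1 for precursor and 0 for neuronal genes. No paired analysis was possible because each group had 1 sample and no result came from a test. Depth is unknown, so an interval that was not called cannot be told from one missed.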
